A study of Mus musculus with 8 samples.

Results

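Pericytes and vascular smooth muscle cells, together called mural cells, were represented by 232 nuclei among the 48468 barcodes that passed quality limits in 8 single-nucleus RNA libraries of mouse forebrain, a share of 0.479% (95% exact Clopper-Pearson interval 0.419% to 0.544%, which covers counting error only). The nuclei were chosen by their own counts. A barcode was kept when it held at least 500 unique molecular identifiers (UMIs), at least 300 detected genes and at most 5% mitochondrial UMIs. It also had to show at least 2 of the 8 mural genes Rgs5, Pdgfrb, Vtn, Higd1b, Abcc9, Notch3, Myh11 and Acta2 with at least 3 UMIs over them. No UMI of the endothelial and fibroblast genes Cldn5, Flt1, Col1a2 and Dcn or of the glial genes Mog, Aqp4 and Cx3cr1 was allowed, and at most 1 UMI over the neuron genes Rbfox3, Snap25 and Syt1.

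The libraries came from male Swiss Webster mice, 10 weeks old, that underwent control, BCAS, TBI or combined BCAS+TBI surgery, with 2 biological replicates in each group. TBI is traumatic brain injury; the labels give BCAS by its abbreviation, and the series title names cerebral hypoperfusion. A small cube of tissue beside the lesion was frozen, nuclei were extracted and 3′ counting libraries were made on a droplet system. The time between surgery and dissection, the number of mice behind each library and what the control surgery involved are not stated in the sources used here.

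Mural cells lie on the outer face of the endothelium, embedded in its basement membrane, with pericytes along capillaries and smooth muscle cells around arterioles and arteries. Platelet-derived growth factor B released by endothelium acts on the receptor Pdgfrb, and Notch ligands act on Notch3, to recruit and keep these cells. Calcium entry and myosin light chain phosphorylation contract them, cyclic nucleotides relax them, and in the brain pericytes also help to maintain the blood-brain barrier.

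The mural nuclei were shallow. Their median was 836 UMIs and 595.5 genes, against a median of 4788 UMIs over all barcodes within the limits and 920 UMIs in 675 endothelial nuclei chosen by a matching rule. Of the 1239 barcodes that met the mural gene condition, 734 held an endothelial or fibroblast gene of the rule, 568 more than 1 neuron UMI and 438 a glial gene, with overlaps. The 100 barcodes that failed on neuron UMIs alone had a median of 2227 UMIs, so the limit on neuron UMIs removed deeper barcodes. Just inside the rule stood 26 nuclei with exactly 3 mural UMIs (median 709 UMIs), and just outside it 44 barcodes with 2 (median 1642 UMIs) and 37 with 2 neuron UMIs (median 1012 UMIs). Summed over nuclei, a library held 16868 to 42291 mural UMIs, so that 1 UMI equalled 23.6 to 59.3 CPM, the unit used below, in which the UMIs of a gene are scaled by the summed mural UMIs of its library. The libraries fell into a pair of sets by their total UMIs, 28118725 to 33363564 in set 1 (control 1, BCAS 1, TBI 1 and BCAS+TBI 2) and 42651388 to 56135192 in set 2, with 1 library of each group in each set. Of 244 barcode sequences found in more than 1 library, 2 belonged to mural nuclei, and no barcode was shared between mural nuclei of different libraries.

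The 5 genes that define the label were unevenly detected. Pdgfrb was detected in 182 nuclei (78.4%), Vtn, a secreted adhesion protein abundant in brain pericytes, in 180 (77.6%), and Abcc9, the sulfonylurea receptor subunit of their ATP-sensitive potassium channel, in 148 (63.8%). Rgs5, a regulator of G protein signalling, was detected in 123 nuclei (53.0%) and Myh11, smooth muscle myosin, in 30 (12.9%). At least 3 of these 5 genes were present in 156 nuclei. Since these genes chose the nuclei, their detection and levels are a description without a test, and the label is set against markers outside the rule further on.

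Across libraries the selecting genes varied widely, in most groups also between the replicates. Rgs5 stood at 1008 and 1236 CPM in the control libraries, 1120 and 2244 in BCAS, 1482 and 1749 in TBI, and 1088 and 1092 in BCAS+TBI. The BCAS 2 library was high and its partner was level with controls, and both TBI libraries lay above those of control and BCAS+TBI. Vtn was 4387 and 1668 CPM in control, 4445 and 3241 in BCAS, 3969 and 2394 in TBI, and 2814 and 5202 in BCAS+TBI. In every group the library of the shallower set 1 held the higher Vtn value, and the same held for Higd1b, a further pericyte marker gene, which ranged from 92.1 to 676 CPM. Notch3 was 1956 and 1020 CPM in control, 945 and 1033 in BCAS, 1721 and 1350 in TBI, and 1135 and 520.2 in BCAS+TBI. Both TBI libraries lay above those of BCAS and BCAS+TBI and overlapped control. Abcc9 was 1541 and 958 CPM in control, 1400 and 1460 in BCAS, 1052 and 1657 in TBI, and 2554 and 1560 in BCAS+TBI, so BCAS+TBI lay above control and BCAS and overlapped TBI. With 2 libraries in each group, these separations between groups arise readily by chance. Myh11 ranged from 0 in BCAS+TBI 2 to 896 CPM in control 2.

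**Figure D1:**
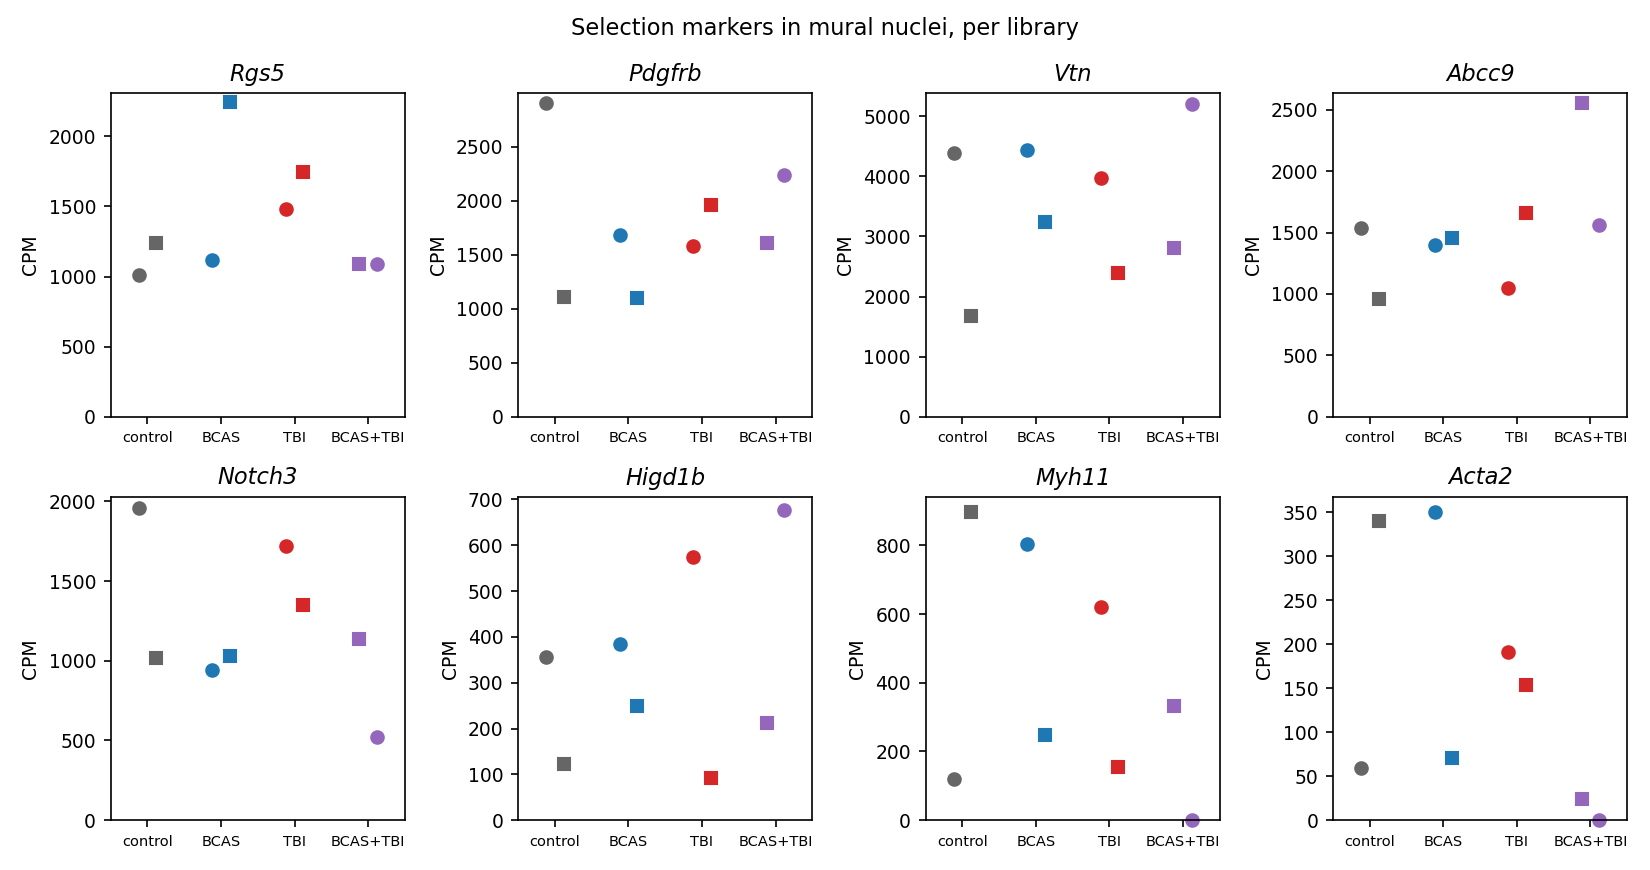
CPM of the 8 mural genes of the selection rule, summed over the mural nuclei of each library; replicate 1 is the left and replicate 2 the right point of each group, circles are libraries of the shallower set and squares of the deeper set. Rgs5 stands at 2244 CPM in BCAS 2 against 1008 to 1749 in the others, and Myh11 spans 0 to 896 CPM.

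Outside the rule, the 20 genes with the largest ratio to all other barcodes (10 CPM added to both, each library weighted equally) were above the other barcodes in 8 of 8 libraries. Atp13a5, a P5-type transport ATPase known as a brain pericyte marker, led them at 4168 ± 1256 CPM (SD, n = 8) against 19.8 ± 4.02 in all other barcodes, 9.09 in endothelial nuclei and 253 in 174 fibroblast nuclei. It was detected in 181 of the 232 nuclei and lies on chromosome 16 from 29231851 to 29378732 on the minus strand (GRCm38, GENCODE M21). By library Atp13a5 was 5276 and 2812 CPM in control, 2555 and 4238 in BCAS, 3730 and 5678 in TBI, and 5675 and 3381 in BCAS+TBI, so the 2 libraries of each group were far apart and all groups overlapped. The amino acid transporter gene Slc38a11 stood at 941 ± 237 CPM and at 0 in both endothelial and fibroblast nuclei. Carmn, a long noncoding RNA known in smooth muscle, stood at 753 ± 177 CPM against 0 in endothelial and 53.4 in fibroblast nuclei.

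For 5 of the leading genes a neighbouring vascular class came closer. Ebf1, a transcription factor of the mural lineage, was 3521 ± 773 CPM in mural and 2647 ± 295 in endothelial nuclei, and was higher in mural nuclei in 6 of 8 libraries. Rbpms, an RNA-binding protein, was 800.3 ± 244 against 442 ± 84.5 CPM, higher in 7 of 8 libraries, and the collagen receptor subunit Itga1 was 742 ± 209 against 336 ± 74.2 CPM, higher in 8 of 8. The proline transporter gene Slc6a20a was 1067 ± 287 CPM in mural and 736 ± 280.2 in fibroblast nuclei, higher in 7 of 8 libraries, and the scavenger receptor gene Colec12 was 907 ± 357 against 898 ± 206 CPM, higher in 5 of 8. The remaining leading genes included Ano1, a calcium-activated chloride channel (661 ± 224 CPM), Ednra, the endothelin receptor that contracts mural cells (485 ± 203 CPM), Gjc1, a gap junction protein (460.2 ± 110 CPM), and Nid1, a basement membrane linker protein (336 ± 129 CPM). Adap2 overlaps its antisense gene Adap2os, and both were among the 20; the sources used here do not state whether counting used strand, so their levels are uncertain.

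**Figure D2:**
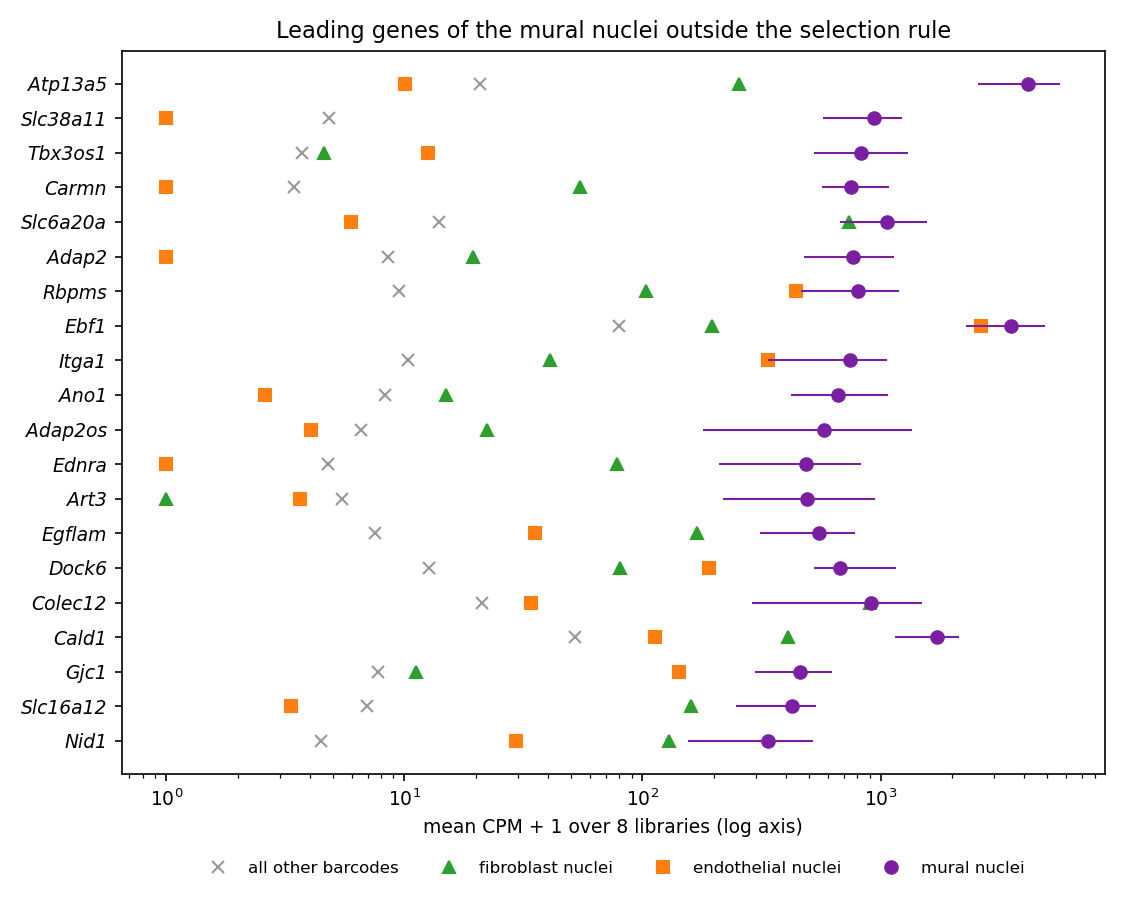
Mean CPM plus 1 (log axis) of the 20 leading genes outside the selection rule in mural nuclei (circles, with a line from the lowest to the highest library), endothelial nuclei, fibroblast nuclei and all other barcodes. Atp13a5 and Slc38a11 stand far to the right of every other class, while Ebf1 meets endothelial and Colec12 meets fibroblast nuclei.

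The listed pericyte markers outside the rule were all detected. Summed over the 15 genes they came to 12440 ± 2075 CPM in mural nuclei (9516 to 15190 over libraries), against 2699 in endothelial nuclei, 1541 in fibroblast nuclei and 265 in all other barcodes. Each of the 15 was higher in mural than in endothelial nuclei. They included Cspg4, the NG2 proteoglycan (437 ± 156 CPM), Kcnj8, the pore of the pericyte potassium channel whose regulatory subunit is Abcc9 (147 ± 47.5 CPM), and Ndufa4l2, a mitochondrial protein (174 ± 126 CPM). Of 15 smooth muscle markers outside the rule 13 were detected, and Cnn1 and Olfr558 had no UMI in any mural nucleus. The 15 summed to 1256 ± 403 CPM, against 304 in endothelial nuclei, 521 in fibroblast nuclei and 596 in all other barcodes. That gap to all other barcodes was much smaller than for the pericyte markers. Markers of other classes were also counted. The 10 endothelial markers summed to 94.8 ± 130.1 CPM against 21000 in endothelial nuclei, with Cldn5 and Flt1, barred by the rule, and Cyyr1 at 0. The endothelial nuclei were themselves chosen by Cldn5, Flt1, Pecam1, Slco1a4, Abcb1a and Ptprb of this list, so the gap is largely set by selection. The 8 astrocyte markers, with Aqp4 barred by the rule, summed to 1422 CPM and ranged from 368 to 2790 over libraries. Their sum was 1290 in all other barcodes, 642 in endothelial and 1932 in fibroblast nuclei, so astrocyte RNA was not lower in mural nuclei than in all other barcodes. Fibroblast markers summed to 818 CPM against 92.8 in all other barcodes, and 146 of their 184 UMIs were of Cped1. Excitatory neuron markers summed to 1272 CPM (526 to 2458) against 10710 in all other barcodes. Red blood cell genes, all haemoglobin chains, summed to 519 CPM (23.6 to 1260) against 319 in all other barcodes and 739 in endothelial nuclei. In 31 of the 232 nuclei at least 5 marker UMIs of another class were found, with astrocyte markers in 11.

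A smooth muscle part was described by Myh11 or Acta2, the smooth muscle actin. At least 1 UMI of either was present in 33 nuclei (14.2%), with 3 and 8 in the control libraries, 4 and 4 in BCAS, 5 and 2 in TBI, and 7 and 0 in BCAS+TBI. As shares of the mural nuclei these were 12.5% and 32.0% in control, 11.4% and 14.8% in BCAS, 21.7% and 6.06% in TBI, and 17.5% and 0% in BCAS+TBI. The 0 of 25 nuclei in BCAS+TBI 2 allows a share of up to 13.7% (exact Clopper-Pearson), and the groups overlapped. Depth was slightly higher in these nuclei, with a median of 1036 UMIs against 811 in the 199 others, and 14 of the 33 also held Rgs5, so the division is one of detection and not a clean separation of cell types.

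In counts pooled over libraries, most genes of the contractile list were denser in those 33 nuclei. The Poisson intervals given here and below cover counting error only. They leave out the spread between nuclei and between libraries, so separate intervals are not a test of a difference. Of the 22 listed, 19 had a higher CPM there and 13 of them had Poisson intervals that did not meet, 2 were lower (Tpm4 and Rock2) and Cnn1 had no UMI. The share of all genes that were denser there, or had separate intervals, was not computed, so these counts have no baseline. Myl9, a myosin light chain, was level at 173 (63.3 to 376) and 150 (100 to 217) CPM, and Cald1 differed little at 2014 (1570 to 2544) and 1692 (1511 to 1890) CPM. Tagln, the actin-binding protein transgelin, had 14 UMIs there and 1 in the other 199 nuclei, and Myocd, the coactivator that switches on smooth muscle genes, had 12 and 0. Eln, the elastin of arterial walls, had 26 UMIs against 4. Lmod1, which nucleates actin filaments, had 14 against 2, and Synpo2, an actin-bundling protein, 12 against 2. As CPM of summed counts, the tropomyosin gene Tpm1 was 1036 CPM (95% Poisson interval 725 to 1434) against 188 (131 to 262). These genes were not in the rule, although genes that vary with Myh11 over nuclei are not independent of it and no test is given.

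Several calcium channel and adhesion genes were also denser in the smooth muscle part, but the calcium channel genes Cacna2d1 and Cacna1h had intervals that met. Ctnna3, an alpha-catenin, had 86 UMIs in the smooth muscle part and 20 outside it, or 2474 CPM (1979 to 3055) against 108 (65.6 to 166). Ntn4, a basement membrane netrin, had 28 against 8 UMIs, and the ryanodine receptor gene Ryr2, a calcium release channel, 29 against 19. Cacna1c, the pore of the L-type calcium channel, was 3078 CPM (2522 to 3719) against 1461 (1293 to 1646). Kcnma1, the large-conductance calcium-activated potassium channel, was 863 CPM (582 to 1232) against 156 (104 to 224). Of the 17 listed transporters 12 were denser in the other 199 nuclei, 4 of them with Poisson intervals that did not meet. The other 5 were denser in the smooth muscle part, 2 of them with intervals that did not meet. The 15 pericyte markers outside the rule did not follow the division clearly. Of these, 9 were denser in the other nuclei and 6 in the smooth muscle part, with separate intervals for 1 and 2. For neither list was a share over all genes computed. Atp13a5 was 2244 CPM (1774 to 2800) against 4631 (4327 to 4951), and the manganese transporter gene Slc30a10 was 173 (63.3 to 376) against 467 (374 to 577), while Slc38a11 was denser in the smooth muscle part at 1553 (1167 to 2027) against 876 (746 to 1021) CPM. Ptn, the growth factor pleiotrophin, was 920.5 CPM (629.6 to 1299) against 2294 (2082 to 2522). Ednra was level at 518 (307 to 818) and 462 (369.6 to 570.6) CPM.

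**Figure D3:**
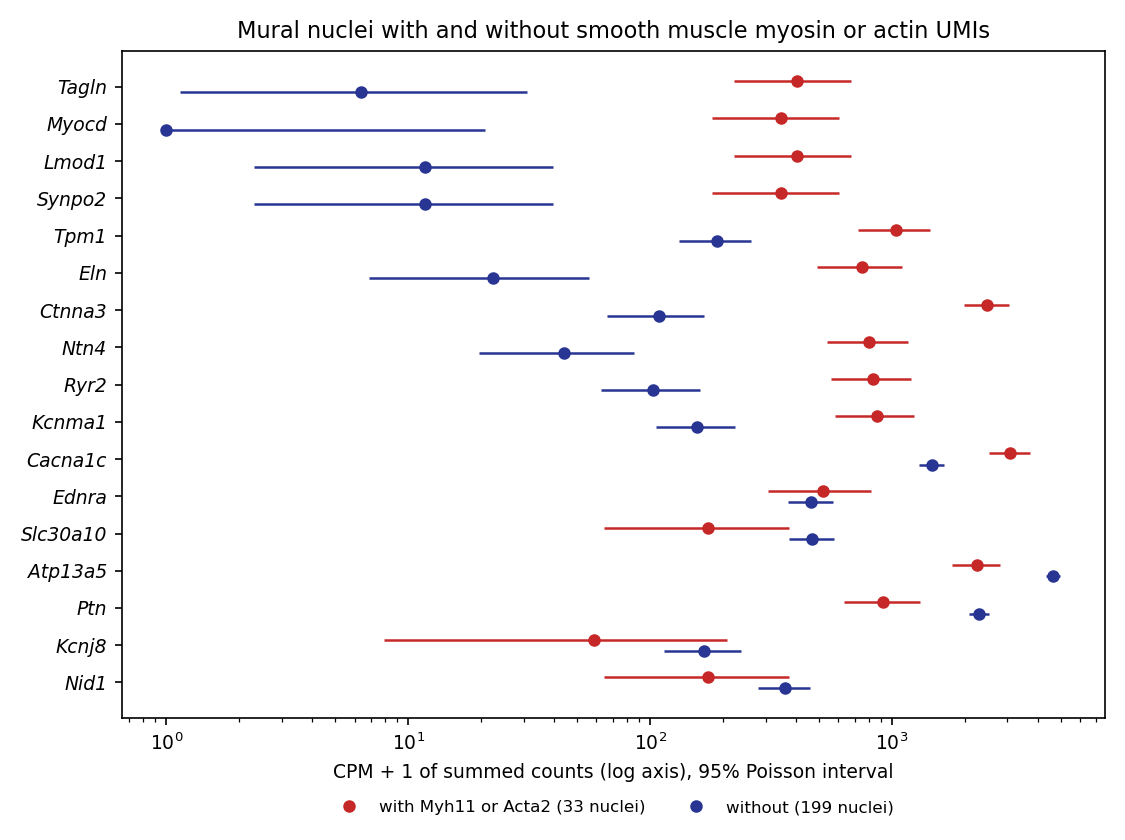
CPM plus 1 of summed counts (log axis) with 95% Poisson intervals, covering counting error only, for 17 genes in the 33 mural nuclei with a Myh11 or Acta2 UMI and in the 199 without. Tagln, Myocd, Eln and Ctnna3 stand to the right in the first set, Atp13a5 and Ptn in the second, and Ednra coincides.

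By role, genes that contract vessels and genes of cyclic nucleotide signalling were both present. Contraction was represented by Cald1, the actin regulator caldesmon (1731 ± 348 CPM against 112 in endothelial nuclei), by Mylk, myosin light chain kinase (395 ± 142 against 81.7), and by Cacna1c (1637 ± 410 against 62.4). Cyclic nucleotide signalling, which relaxes mural cells, was represented by the nitric oxide receptor subunits Gucy1a2 (832 ± 198 against 36.5) and Gucy1b1 (609 ± 176 against 26.9) and by the phosphodiesterase genes Pde8b (2687 ± 701 against 39.9) and Pde3a (590 ± 199 against 23.8), which break down cyclic nucleotides and so oppose it. Prkg1, the kinase that cyclic GMP activates, was 2848 ± 753 CPM in mural and 2405 ± 708 in endothelial nuclei, so that difference was smaller than the spread over libraries. Of the 24 vasoactive genes listed, 23 were detected, and several hormone receptors were near the floor, with 1 UMI each for Agtr1a, Adra1b and Avpr1a and none for Ptgir.

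Among the listed matrix genes, the selected nuclei held mostly RNA of the basement membrane. All 27 listed basement membrane genes had UMIs, with a sum of 6278 ± 512 CPM against 3491 in endothelial and 3637 in fibroblast nuclei, and 20 of the 27 were higher in mural than in endothelial nuclei. Lama2, a laminin chain, was 1142 ± 231 CPM in mural, 30.7 in endothelial and 737 in fibroblast nuclei, and Lamc1, another laminin chain, was 635 ± 219 against 110.1 in endothelial nuclei. The scar and interstitial matrix list of 23 genes summed to 461 ± 353 CPM, below the 1161 of endothelial and 1880 of fibroblast nuclei. The transporter list of 17 genes summed to 12490 ± 1779 CPM against 2160 in endothelial and 6552 in fibroblast nuclei. Among the genes that chose the fibroblast nuclei were Col1a1 and Lum of the matrix list and Slc6a13 of the transporter list, which raises their fibroblast sums. The mural rule in turn barred any UMI of Col1a2 or Dcn, which can lower the mural sum of interstitial matrix genes. On the endothelial and fibroblast genes of the rule alone 323 barcodes failed. In Notch signalling Heyl, a Notch target gene, was 142 ± 86.8 CPM against 4.76 in endothelial nuclei, while the ligand Jag1 was 114 ± 64.2 against 156.

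Single inflammatory genes had few UMIs in these shallow nuclei, where 14838 of all 54232 genes had a UMI. Of 25 inflammatory genes 10 had no UMI in any mural nucleus, among them the chemokines Ccl2 and Cxcl1, the cytokine Il6, the adhesion molecule Icam1 and the acute-phase gene Lcn2. For a gene with no UMI, the floor of 3 UMIs corresponds to 13.6 CPM over all 220891 mural UMIs and to 70.9 to 178 CPM in a single library. The 25 genes summed to 802 ± 217 CPM, below the 2478 of endothelial nuclei, near the 924 of fibroblast nuclei and above the 260 of all other barcodes. By library the sum was 534 and 958 CPM in control, 525 and 784 in BCAS, 813 and 737 in TBI, and 1182 and 884 in BCAS+TBI. BCAS+TBI lay above BCAS and TBI and overlapped control, and the genes with the most UMIs were the signalling genes Stat3 (40), Nfkb1 (34) and Il6st (27). The 20 hypoxia genes summed to 1008 and 1236 CPM in control, 1225 and 1460 in BCAS, 1195 and 1289 in TBI, and 1419 and 1717 in BCAS+TBI. The BCAS+TBI libraries lay above those of control and TBI and overlapped BCAS. Neither sum was tested. With 2 libraries in each group such separations arise readily by chance, and the share of lists or genes that show them was not computed. Epas1, the hypoxia factor characteristic of endothelium and pericytes, was the only hypoxia gene with enough counts to test.

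To determine whether either surgery changed how many mural nuclei were recovered, shares of barcodes were compared over libraries. The shares were 0.420% and 0.422% in control, 0.636% and 0.395% in BCAS, 0.428% and 0.433% in TBI, and 0.664% and 0.456% in BCAS+TBI. BCAS 1 and BCAS+TBI 1 were high, and their partners were near the control libraries. With TBI surgery the mean was 0.496% ± 0.113 (SD, n = 4) and without it 0.468% ± 0.113, a difference of 0.0274 percentage points (two-sided exact permutation p = 0.457). With BCAS surgery it was 0.538% ± 0.133 and without it 0.426% ± 0.00624 (n = 4 each), a difference of 0.112 points, higher in 3 of 4 libraries than any library without BCAS (exact permutation p = 0.229, adjusted over the 2 surgeries 0.457). When every barcode of at least 1000 UMIs was thinned to 1000, the BCAS difference was 0.00407 points (exact permutation p = 0.914). Among nuclei of at least 1000 UMIs it was 0.0173 points (exact permutation p = 0.857). Of the 232 mural nuclei, however, 156 had under 1000 UMIs. The thinned setting held 3 to 24 mural nuclei per library and the other 0 to 16, so both values rest on few nuclei. The TBI difference was below the SD of either arm. The BCAS difference was below the SD with BCAS surgery (0.133) but above that without it (0.00624). Neither passed the permutation test, and the smallest p that 4 against 4 can give is 0.0286. Within library sets BCAS surgery differed by 0.122 points in set 1 and 0.102 in set 2, while TBI surgery differed by -0.0859 and 0.141 points, so the sign for TBI was not kept.

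Because nuclei of vessels are recovered together, the number of mural nuclei per endothelial nucleus was added after the data were seen. It was 0.235 and 0.184 in control, 0.833 and 0.391 in BCAS, 0.281 and 0.311 in TBI, and 0.476 and 0.463 in BCAS+TBI. All 4 libraries with BCAS surgery lay above all 4 without it, at 0.541 ± 0.199 against 0.253 ± 0.0555 (SD, n = 4 each), a log2 difference of 1.06. The exact two-sided permutation p was 0.0286, the smallest that this design can give, and 0.114 when adjusted over the 4 tests of nuclear proportions, so it did not pass after adjustment. Endothelial nuclei numbered 102 and 136 in control, 42 and 69 in BCAS, 82 and 106 in TBI, and 84 and 54 in BCAS+TBI, so the ratio moved with the lower endothelial counts in BCAS as well as with mural counts. Among mural nuclei with no neuron UMI the exact permutation p was 0.0857, and within library sets it was 0.0556, again the smallest possible. For TBI surgery the ratio was 0.383 ± 0.101 against 0.411 ± 0.295 (exact permutation p = 0.857).

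**Figure D4:**
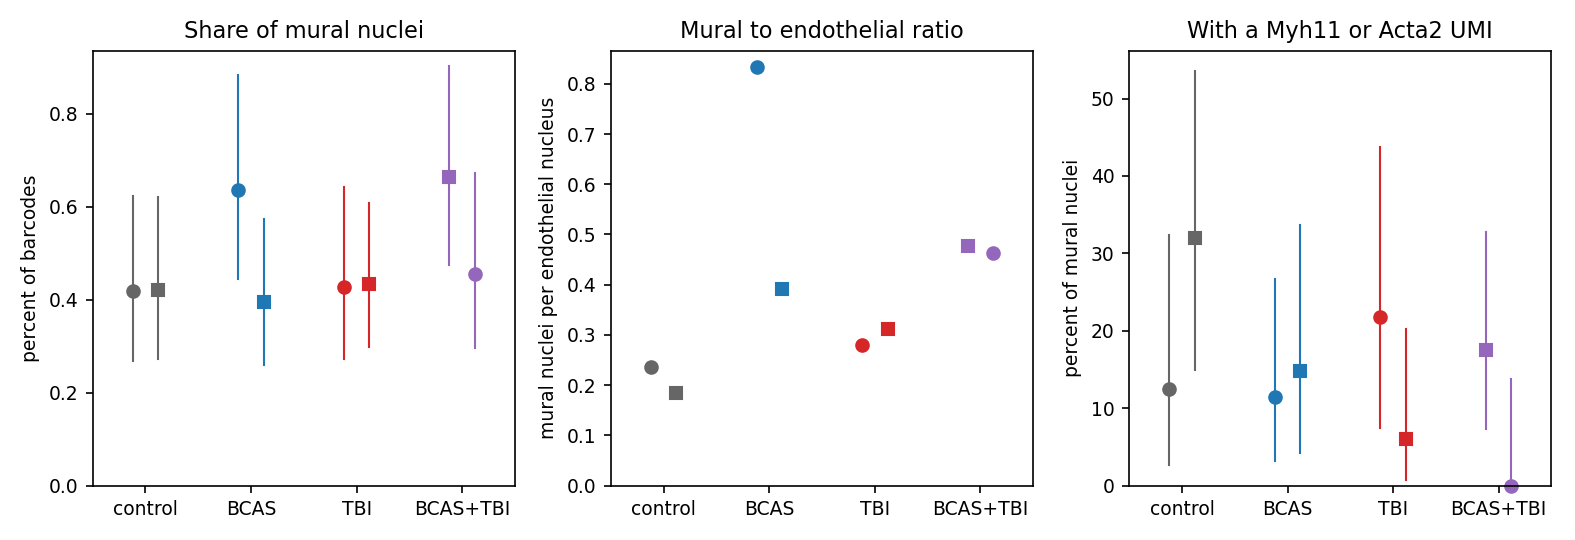
Share of mural nuclei among barcodes, number of mural nuclei per endothelial nucleus, and percent of mural nuclei with a Myh11 or Acta2 UMI, for each library; vertical lines are 95% exact intervals covering counting error only, circles are libraries of the shallower set and squares of the deeper set. The 4 libraries with BCAS surgery lie at 0.391 to 0.833 mural nuclei per endothelial nucleus and the 4 without it at 0.184 to 0.311.

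To determine whether gene expression within mural nuclei followed the surgeries, summed counts were tested over the 8 libraries with edgeR's quasi-likelihood test. Of the genes outside the rule 560 had enough counts. No gene passed a Benjamini-Hochberg adjusted p of 0.05 in any of 7 comparisons (0 of 560, 0%), and the smallest adjusted p was 0.991. With unadjusted p under 0.05 there were 10 genes for TBI surgery averaged over BCAS (1.79% of those tested), 5 for BCAS surgery averaged over TBI (0.893%) and 9 for the interaction (1.61%). DESeq2 also called none and gave 2, 1 and 2 genes at the unadjusted level. The median standard error of a log2 difference was 0.45 for either surgery. The genes described next are those with the smallest p, and none of them passed the adjusted threshold.

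For TBI surgery the gene with the smallest p was Hecw2, an E3 ubiquitin ligase on chromosome 1 from 53806876 to 54195168 (minus strand, GRCm38). It stood at 119 and 124 CPM in control, 140 and 142 in BCAS, 382 and 460.4 in TBI, and 189 and 676 in BCAS+TBI. All 4 TBI libraries lay above the 4 without TBI surgery, on counts of 2 to 15 UMIs per library, and the log2 difference was 1.64 ± 0.62 (SE, edgeR adjusted p = 0.991). Hecw2 was higher in all other barcodes (433 CPM) than in mural nuclei on average (279 CPM). Fnbp1, a membrane-bending protein, stood at 237 and 309 CPM in control, 280 and 249 in BCAS, 430.4 and 460.4 in TBI, and 449 and 520.2 in BCAS+TBI, also without overlap (log2 difference 0.73 ± 0.37, adjusted p = 0.991). Daam2, a formin of actin assembly, was 312 to 478 CPM with TBI surgery and 140 to 309 without it (0.99 ± 0.44). Among the leading genes of mural nuclei Nid1 was 338 to 520.2 CPM with TBI surgery and 155 to 321 without it (0.86 ± 0.45, adjusted p = 0.991). Of the 560 genes, 5 had all 4 TBI libraries above the others (0.893%) and 1 had them all below (0.179%). Hecw2, Fnbp1, Daam2 and Nid1 are 4 of those 5, and Nid1 was named after its values were seen.

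Other genes with small p for TBI surgery overlapped between arms. Sntb1, a syntrophin of the dystrophin complex, stood at 711 and 216 CPM in control, 280 and 214 in BCAS, 574 and 921 in TBI, and 828 and 312 in BCAS+TBI (log2 difference 0.98 ± 0.44). Csmd1, a complement-regulating transmembrane protein abundant in neurons, had 1 and 4 UMIs in control, 5 and 15 in BCAS, 6 and 30 in TBI, and 17 and 4 in BCAS+TBI. All other barcodes held 3984 CPM of it. Excitatory neuron markers were at 2363 CPM in the mural nuclei of TBI 2 and 2458 in BCAS 2, where Csmd1 was 921 and 534 CPM, against 526 to 1277 CPM in the other 6 libraries. The part of these markers in the Csmd1 values was not tested. Of the genes with negative differences, Ldlrad4, an inhibitor of TGF-beta signalling, had 6, 13, 13 and 4 UMIs without TBI surgery and 1, 3, 7 and 1 with it (-1.86 ± 0.80). Rbm6, a splicing regulator, stood at 593, 525, 245 and 534 CPM without TBI surgery and at 144, 184, 426 and 208 with it (-1.01 ± 0.42). Sparcl1, a secreted matrix glycoprotein, differed by -0.86 ± 0.39 and Crim1, a binder of bone morphogenetic proteins, by -0.91 ± 0.42.

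For BCAS surgery the 2 genes with positive differences and p under 0.05 were Rgs4 and Asic2 (0.357% of those tested). Rgs4, a regulator of G protein signalling whose gene neighbours Rgs5 on chromosome 1 (169741477 to 169747642, minus strand), was 356 and 216 CPM in control, 735 and 606 in BCAS, 430.4 and 307 in TBI, and 497 and 520.2 in BCAS+TBI. All 4 libraries with BCAS surgery lay above the 4 without it, and the log2 difference was 0.89 ± 0.37 (edgeR adjusted p = 0.999). Rgs4 was denser in mural nuclei, at 458 ± 168 CPM, than in endothelial (21.1 CPM) and fibroblast nuclei (17.8 CPM). All other barcodes held 25.9 CPM, a mean over mixed cell types that does not give the level in any single type. Rgs4 was detected in 72 mural nuclei, with at most 4 UMIs in any of them. Of the 560 genes 3 had all BCAS libraries above the others (0.536%) and 4 had them all below (0.714%). Asic2, an acid-sensing channel, had 39 UMIs in BCAS 1, of which 25 came from 1 nucleus, and 0 to 14 in the other libraries. Camk2d, a calcium-dependent kinase of muscle, was 312 to 560 CPM with BCAS surgery and 144 to 309 without it (0.76 ± 0.43, adjusted p = 0.999).

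Of the 5 genes with the smallest p among negative differences under BCAS surgery, 4 were denser in the smooth muscle part. They were picked by p, no list was tested, and the share of all genes denser there was not computed. Ntn4 had 0 and 15 UMIs in control, 3 and 0 in BCAS, 10 and 7 in TBI, and 1 and 0 in BCAS+TBI, with a log2 difference of -3.15 ± 1.41 (edgeR adjusted p = 0.999). Filip1l was 652 and 711 CPM in control, 560 and 71.2 in BCAS, 1387 and 460.4 in TBI, and 189 and 416 in BCAS+TBI (-1.37 ± 0.57). Ctnna3 had 3, 42, 15 and 10 UMIs without BCAS surgery and 18, 8, 10 and 0 with it (-1.27 ± 0.61). Dgkb, a diacylglycerol kinase, had 13, 71, 29 and 39 UMIs without it and 22, 15, 55 and 6 with it (-0.92 ± 0.43). In the nuclei with Myh11 or Acta2 lay 57 of 112 Filip1l UMIs and 111 of 250 Dgkb UMIs. Signs of other genes of that kind were mixed. Camk2d, itself picked by p, was also denser there (575 against 285 CPM) and positive under BCAS surgery. Mylk, the only smooth muscle marker outside the rule that was tested, differed by 0.27 ± 0.37. Of the 9 contractile genes tested, 6 were negative and 3 positive (median -0.27, beside -0.01 over all genes). The libraries with BCAS surgery held 15 nuclei with Myh11 or Acta2 among 127 and those without it 18 among 105. In summed counts fewer smooth muscle nuclei and less RNA per nucleus cannot be told apart, and the part of the smooth muscle share in these differences was not tested. When the 31 nuclei with marker UMIs of another class were left out and the library set was a term in the fit, an alternative chosen after seeing the data, Filip1l (-1.40 ± 0.38, adjusted p = 0.0319), Dgkb (-1.20 ± 0.31, 0.0319) and Ctnna3 (-1.72 ± 0.49, 0.0477) fell among 311 genes tested. Without that term none of the 311 passed. Cacna2d1, the auxiliary subunit of voltage-gated calcium channels, was 711, 433, 335 and 798 CPM without BCAS surgery and 210, 285, 378 and 260.1 with it (-0.97 ± 0.39, edgeR adjusted p = 0.999). It was level between the smooth muscle part (374 CPM, 199 to 639) and the other mural nuclei (435 CPM, 346 to 541).

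**Figure D5:**
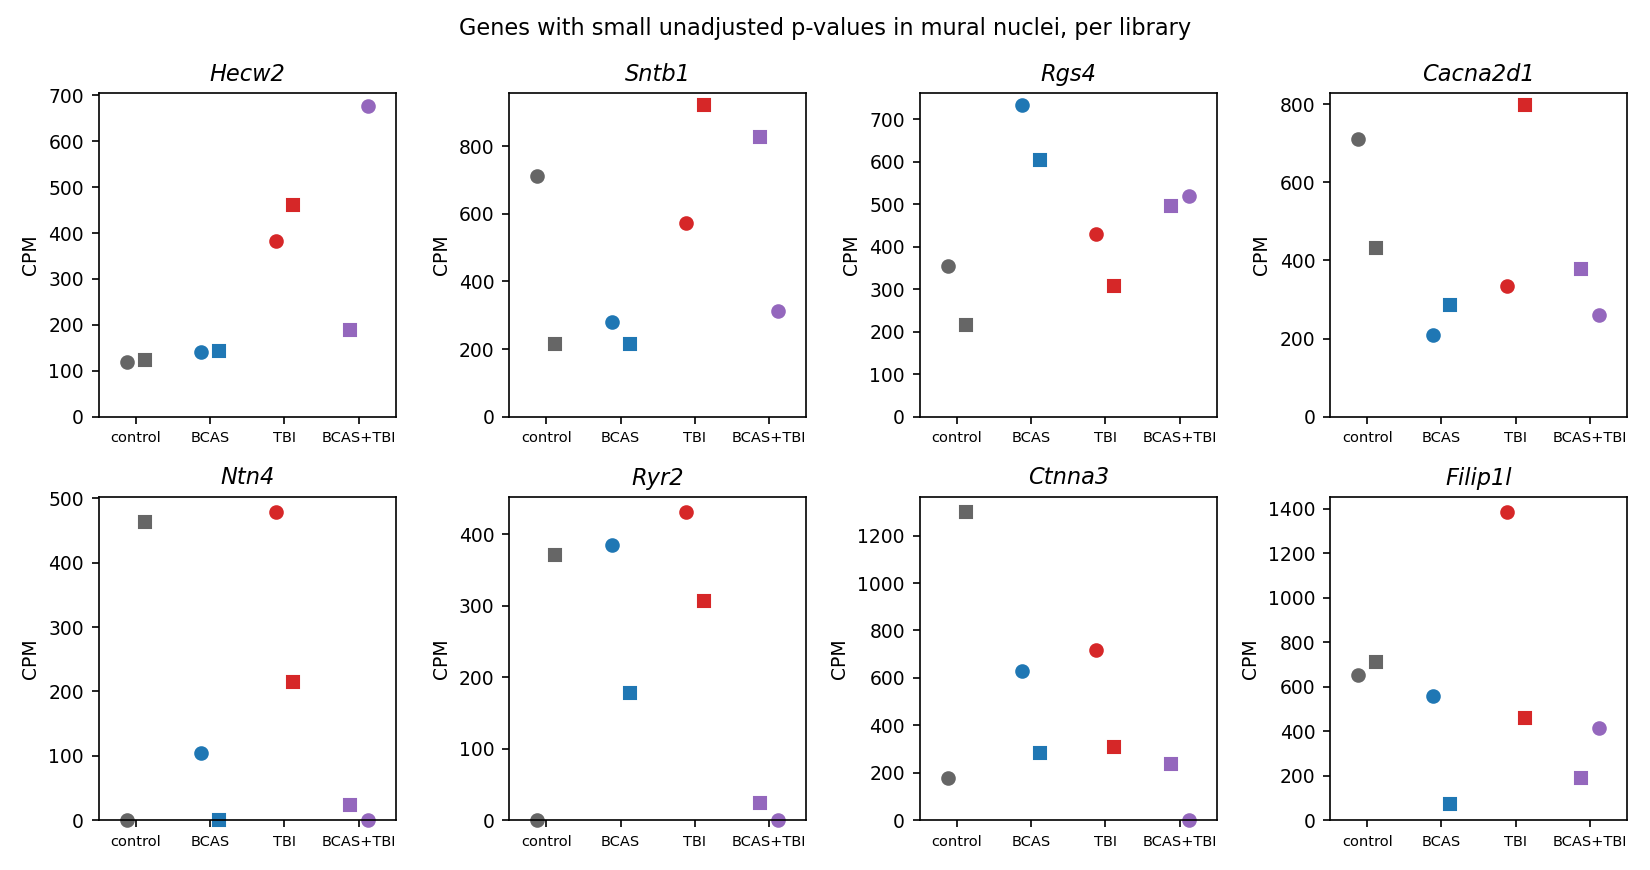
CPM per library of 8 genes among those with the smallest unadjusted p for TBI surgery, BCAS surgery or, for Ryr2, the interaction. None passed the adjusted threshold. Replicate 1 is the left point, replicate 2 the right, circles are the shallower and squares the deeper library set. Hecw2 is at 189 to 676 CPM with TBI surgery and 119 to 142 without. Rgs4 is at 497 to 735 CPM with BCAS surgery and 216 to 430.4 without. Ntn4 and Ryr2 are at or near 0 in both BCAS+TBI libraries. Both genes are also at 0 in control 1, and Ntn4 is at 0 in BCAS 2.

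The interaction asks whether the effect of TBI surgery differed with BCAS surgery. Ryr2 had 0 and 12 UMIs in control, 11 and 5 in BCAS, 9 and 10 in TBI, and 1 and 0 in BCAS+TBI. Both BCAS+TBI libraries were low, and the interaction was -4.71 ± 2.01 on the log2 scale (edgeR adjusted p = 0.997). BCAS+TBI 1 held 7 nuclei with Myh11 or Acta2 and 1 Ryr2 UMI, and BCAS+TBI 2 held none of either. Hsp90b1, an endoplasmic reticulum chaperone, was 237 and 247 CPM in control, 630 and 463 in BCAS, 382 and 399 in TBI, and 166 and 260.1 in BCAS+TBI (interaction -2.11 ± 0.81, adjusted p = 0.997). Each single surgery stood above control and the combination did not, a pattern that was not past the threshold.

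Of the 5 genes with the smallest p among positive interactions, Zfr, an RNA-binding protein (2.11 ± 0.89), Svil, an actin-bound supervillin (1.46 ± 0.71), and Bicc1, an RNA-binding protein (1.88 ± 0.79), were spread over 55, 61 and 58 nuclei. The other 2 rested on fewer nuclei. Trpm3, a cation channel that stood at 13800 CPM in fibroblast nuclei, had 86 UMIs in control 2, of which 32 came from 1 nucleus, and 3 to 15 in the other 7 libraries (interaction 3.63 ± 1.28, edgeR adjusted p = 0.997). Gpc5, a cell-surface proteoglycan, was found in 18 nuclei, with 84 UMIs in control 2 and 98 in BCAS+TBI 1, and 63 of the latter came from 1 nucleus (4.72 ± 1.84). Ptgds, named for BCAS+TBI against TBI (2.33 ± 1.29), a prostaglandin synthase at 9245 CPM in fibroblast nuclei, had 69 UMIs in BCAS 1, of which 61 were in 1 nucleus, and 83 in BCAS+TBI 2. Fibroblast markers summed to 1143 CPM in control 2 and 534 to 1015 CPM in the other libraries, but 146 of their 184 UMIs were of Cped1, which was found in 91 of the mural nuclei. The part of single nuclei and of fibroblast RNA in the Trpm3, Gpc5 and Ptgds values was not tested.

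In the comparisons of single groups, 2 libraries stood against 2. Measured against control, 7 genes had an unadjusted p under 0.05 in the TBI libraries (1.25%), 10 in the BCAS libraries (1.79%; 8 higher, 1.43%) and 2 in the BCAS+TBI libraries (0.357%). Between BCAS+TBI and TBI it was 1 gene (0.179%). None passed the adjusted threshold with edgeR or DESeq2, which gave 2, 1, 2 and 2 genes at the unadjusted level. The comparisons with control share the 2 control libraries. For BCAS against control Rgs4 again had the smallest p among positive differences (log2 difference 1.30 ± 0.53), followed by Asic2 (1.75 ± 0.74) and Jmjd1c, a histone demethylase-like protein (1.57 ± 0.68). For BCAS+TBI against control Ctnna3 had the smallest p (-2.44 ± 0.90, edgeR adjusted p = 0.996). For BCAS+TBI against TBI, the comparison that the series title addresses, Ryr2 had the smallest p at -4.25 ± 1.60 (edgeR adjusted p = 1), with Filip1l at -1.66 ± 0.81 and Ntn4 at -4.17 ± 2.13.

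None of the listed genes tested passed the adjusted threshold in any comparison. For TBI surgery the 9 pericyte markers tested had a median log2 difference of 0.04, 5 positive and 4 negative, beside a median of 0.01 over all 560 genes. The 9 contractile genes had a median of -0.24, with 7 of 9 negative, and the 10 basement membrane genes a median of -0.21, with 7 of 10 negative, while 50.5% of all genes were positive. For BCAS surgery the pericyte markers had a median of 0.11 (5 of 9 positive), the contractile genes -0.27 (6 of 9 negative) and the 9 ion channel and calcium genes -0.32 (7 of 9 negative), beside -0.01 over all genes, of which 48.0% were positive. Against control, the 9 contractile genes were all negative in BCAS+TBI (median -0.56, beside -0.03 and 47.7% positive over all genes). Between BCAS+TBI and TBI 8 of the 9 contractile genes and 8 of the 9 ion channel and calcium genes were negative (medians -0.43 and -0.51, with 50.5% of all genes positive). Nuclei with Myh11 or Acta2 numbered 11 of 49 in control, 7 of 56 in TBI and 7 of 65 in BCAS+TBI, and their part in these medians was not tested. The 8 transporter genes had medians of 0.15 for TBI surgery and 0.10 for BCAS surgery. Atp13a5 differed by 0.28 ± 0.35 under TBI surgery and -0.14 ± 0.35 under BCAS surgery, and Pde8b by 0.06 ± 0.33 and 0.40 ± 0.34. No gene of the TGF-beta, interstitial matrix, inflammatory or immediate early lists had enough counts to be tested in these nuclei.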

How the data were processed

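Nuclei of 8 libraries were analysed from the UMI counts per gene and barcode that the authors deposited as filtered matrices; per the file headers these were written by Cell Ranger 7.0.0, and the submitters' processing notes name GRCm38 (mm10) and Seurat. Whether the deposited counts include introns, and the annotation release, are not given in the sources used here. Barcodes were filtered and chosen as described above, with no further doublet removal; 2 chosen nuclei had over 3 times the median UMIs of their library. Endothelial and fibroblast comparison nuclei were chosen by matching rules with mural genes at 0. Counts were summed per library. edgeR 4.0.16 (R 4.3.3) fitted the 4 groups by quasi-likelihood with TMM scaling, filterByExpr with a minimum count of 10 and Benjamini-Hochberg adjustment over the 560 genes tested; the 18 genes of the rule were left out. DESeq2 1.42.0, other scalings, filters, blocks, stricter rules and each library left out were alternatives. Shares were compared by exact permutation of 8 libraries (70 assignments). Scripts were tested on simulated data. Named genes are the 5 with the smallest p in each direction per comparison, the 20 leading genes and members of the gene lists; genes without overlap were added after their values were seen. The members and lists were chosen with earlier results of these data known. Gene positions are those of GENCODE M21, with all 409 genes looked up matched by identifier. Replicates are biological by their labels, and nuclei of 1 library were never treated as replicates.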

Additional observations from a re-analysis of the deposited data

Results flagged for a closer look

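Among 40 groups of 4 libraries screened, which share libraries, 5 had a lowest or highest library whose gap to its neighbour took up an unusual part of the range by Dixon's criterion, which chance meets in about 1 in 20 groups. For the share of mural nuclei the fraction was 0.881 with TBI surgery, where BCAS+TBI 1 stood apart at 0.664%, and 0.889 without TBI surgery, where BCAS 1 stood apart at 0.636%. Rgs5 with BCAS surgery gave 0.972, since BCAS 2 held 2244 CPM and the other 3 libraries 1088 to 1120 CPM. Abcc9 with BCAS surgery gave 0.861, with BCAS+TBI 1 at 2554 CPM and the others at 1400 to 1560 CPM. Notch3 without TBI surgery gave 0.913, with control 1 at 1956 CPM and the others at 945 to 1033 CPM. Rgs5, Abcc9 and Notch3 are genes of the selection rule, so their values are descriptive and the chance rate is only a guide.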

How the results depend on the processing

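The count of 0 genes past the adjusted threshold was the same in every setting run except these. For the interaction 1 gene passed without a filter on low counts (Gpc5). For TBI against control 1 passed with the file number as a block (Trpm3, -3.15 ± 0.67). For BCAS surgery averaged over TBI 3 passed with the library set block and without nuclei carrying 5 marker UMIs of another class. Leaving out 1 library gave 0 to 1 genes for BCAS surgery, for TBI against control and for BCAS against control, and 0 to 2 for the interaction. The passing genes were Trpm3 in 3 comparisons and Gpc5 without control 1, and Filip1l, Gpc5, Ptgds and Sox2ot without BCAS 1. Fits that left out a library rested on 1 library in its group, which was assumed to vary like the others. With the file number as a block the Ptgds difference of BCAS+TBI against TBI turned to -1.85, and with single libraries left out it ran from -1.84 (without BCAS+TBI 2) to 3.29. Without control 2 the sign turned for Trpm3 in TBI and in BCAS against control (0.29 and 0.54; lowest -3.43 and -3.19, without control 1), for Ryr2 in BCAS+TBI against control (2.09; lowest -5.42, without BCAS+TBI 1) and for the Gpc5 interaction (-3.45; highest 10.92, without TBI 1), which was also -1.08 among nuclei with no neuron UMI. The cause was not tested.

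The difference in share for TBI surgery turned to -0.0118 points when nuclei were thinned to 1000 UMIs, to -0.00680 with at least 5 mural UMIs and to -0.0289 without BCAS+TBI 1, and ranged from -0.0289 to 0.0835 points with single libraries left out. For BCAS surgery it was 0.00407 points when thinned (exact permutation p = 0.914) and 0.0173 points with nuclei of at least 1000 UMIs (p = 0.857). Those settings held only 3 to 24 and 0 to 16 mural nuclei per library. With single libraries left out the BCAS difference in share ranged from 0.0701 to 0.160 points. The log2 ratio of mural to endothelial nuclei for TBI surgery was -0.00663 with at least 5 mural UMIs and ranged from -0.190 to 0.537 with single libraries left out. For BCAS surgery it ranged from 0.834 to 1.197, and without control 2 the exact permutation p was 0.0571. With nuclei of at least 1000 UMIs control 1 had none and was left out of the gene tests.

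Replicate numbers did not pair the libraries: correlations of deviations between same-numbered libraries ran from -0.329 to 0.387. With the replicate number as a block 0 genes passed in the 7 comparisons, and the share difference for BCAS surgery of 0.112 points had an exact permutation p of 0.222. With the library set as a block, which crosses the numbers of the BCAS+TBI pair, correlations were 0.00813 to 0.387 and 0 genes passed, with 17 genes at unadjusted p under 0.05 for TBI surgery and 8 for BCAS surgery.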
